A study of Mus musculus with 9 samples.

Results

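The genes described here are 46 genes of mitosis and of the G2 to M transition of the cell cycle, measured in mouse alveolar macrophages with and without Vhl. They were chosen by name, for what their proteins do in dividing cells, and all 46 are among the 12003 genes of the deposited expression table. The 9 libraries are poly(A) RNA of alveolar macrophages rinsed from the lung and purified on beads against CD11c. For each library 5 to 7 untreated C57BL/6 mice, matched for sex and age at 8 to 12 weeks, were pooled. Each of the 3 genotypes has 3 pools. Floxed controls are Vhl(flox/flox) with CD11c (+/+), so that they have loxP-flanked Vhl and no Cre recombinase. Cre controls are Vhl(+/+) with CD11c (cre/+). Knockouts are Vhl(flox/flox) with CD11c (cre/+), in which Cre made under the CD11c promoter can delete Vhl in any cell that uses that promoter, dendritic cells included. The labels name pools, not single mice, so p-values measure the spread between pools. The series title names self-renewal of these macrophages among the properties that Vhl affects, and the genes here are read as a measure of dividing cells.

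Alveolar macrophages maintain themselves in the adult lung largely by dividing in place. A cell that enters mitosis switches on a shared set of genes late in its cycle: cyclins and kinases that start and time mitosis, motors and microtubule proteins that build the spindle, kinetochore proteins that attach chromosomes to it, condensins that compact the chromosomes, and proteins that divide the cell at cytokinesis. Resting cells hold these genes down through the DREAM complex, and dividing cells turn them on through MYBL2, FOXM1 and the factor NF-Y. In bulk RNA such as this, fewer dividing cells and less of these RNAs per dividing cell cannot be told apart.

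The promoters of these genes share short sequences. NF-Y binds the CCAAT box, and DREAM and its activating counterpart bind the cell cycle genes homology region (CHR). RefSeq promoter windows (GRCm38.p6, 250 bases before to 50 after the start site, 1 window per gene) were found for 39 of the 46 genes and searched on both strands for CCAAT, which reads ATTGG on the opposite strand, and for the CHR letters TTTGAA, which read TTCAAA there. The motifs were searched separately, so a base could belong to a match of each. CHR letters were present in 31 of the 39 windows (79.5%), against 18.1% of all 27025 promoters in the table and 12.2% of the 9241 promoters of genes measured here. A CCAAT box was present in 30 of 39 (76.9%), against 37.9% of all promoters, and more than 1 CCAAT box in 21 of 39 (53.8%), against 12.2%. Both motifs were present in 26 of 39 windows (66.7%), against 7.12% of all promoters and 5.24% of those of measured genes. Such matches are letters in a window and do not show that a factor binds.

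To show the arrangement, the 100 bases directly before the start site are printed for 6 genes with both motifs there whose RNA fell in the knockout, followed by Cks2 and Anln, whose RNA did not fall. All sequences run 5′ to 3′ on the gene's own strand, and capitals mark the CCAAT box and CHR letters.
Cdk1: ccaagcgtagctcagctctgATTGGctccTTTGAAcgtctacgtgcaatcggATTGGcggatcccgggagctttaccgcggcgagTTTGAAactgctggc
Top2a: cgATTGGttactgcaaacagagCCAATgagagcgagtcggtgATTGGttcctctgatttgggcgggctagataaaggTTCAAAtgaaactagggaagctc
Ube2c: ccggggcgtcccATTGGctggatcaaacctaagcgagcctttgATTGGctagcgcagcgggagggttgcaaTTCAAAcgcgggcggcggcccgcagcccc
Cdc20: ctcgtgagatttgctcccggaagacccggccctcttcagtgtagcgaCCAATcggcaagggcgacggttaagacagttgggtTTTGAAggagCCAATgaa
Kif11: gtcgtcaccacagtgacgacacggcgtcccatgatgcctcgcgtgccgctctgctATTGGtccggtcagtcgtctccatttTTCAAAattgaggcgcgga
Kif22: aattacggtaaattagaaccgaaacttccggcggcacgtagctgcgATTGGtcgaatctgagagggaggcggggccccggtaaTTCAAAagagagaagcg
Cks2: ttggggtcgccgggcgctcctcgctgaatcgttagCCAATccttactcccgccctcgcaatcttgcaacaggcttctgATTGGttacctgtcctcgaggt
Anln: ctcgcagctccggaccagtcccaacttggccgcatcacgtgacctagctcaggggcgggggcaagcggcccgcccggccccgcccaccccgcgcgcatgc
On GRCm38 the printed stretches lie at chr10:69352913-69353012 (minus strand) for Cdk1, chr11:99024190-99024289 (minus) for Top2a, chr2:164769829-164769928 (plus) for Ube2c, chr4:118437344-118437443 (minus) for Cdc20 and chr19:37376282-37376381 (plus) for Kif11. Those of Kif22, Cks2 and Anln lie at chr7:127042421-127042520 (minus), chr13:51645132-51645231 (plus) and chr9:22389207-22389306 (minus). In the 6 genes that fell, a CHR match lies between position -29 (Ube2c) and position -15 (Cdk1) from the start site, with a CCAAT box between position -58 (Top2a) and position -45 (Kif11). The whole Cks2 window of 300 bases holds 4 CCAAT boxes and no CHR letters. The Anln window holds no CCAAT box, and its 2 CHR matches lie after the start site, at positions 22 and 29. Genes that fell have such windows too. Kif20b and Ndc80, like Anln, hold no CCAAT box and CHR letters only after the start site, and Ccnb1 and Bub1, like Cks2, hold CCAAT boxes and no CHR letters. Birc5, Nuf2, Nusap1 and Ncaph also fell and have neither motif in the window.

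**Figure D1:**
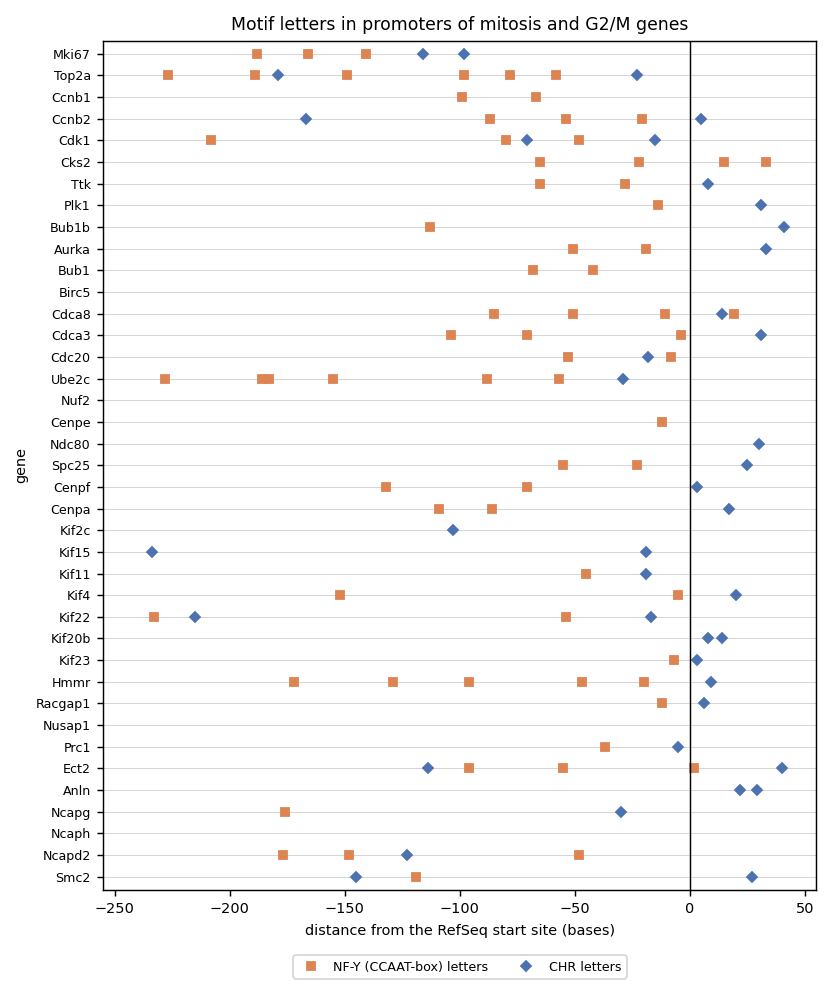
Position of each CCAAT-box match (orange squares) and CHR match (blue diamonds), in bases from the RefSeq start site (x axis), in the promoter windows of 39 mitosis and G2/M genes (y axis). CHR matches gather on either side of the start site and CCAAT boxes mostly lie before it, and 26 of the 39 genes have both.

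Values below are normalized reads, meaning reads per gene scaled by library total and a further factor per library, without correction for gene length. Means are followed by ± SD, over n = 6 pools for the controls of both kinds and n = 3 for a single genotype. Log2 fold changes and their tests come from limma on log2(value + 1), fitted to all genes and all 9 libraries, with p-values adjusted over all 12003 genes by the Benjamini-Hochberg method and a threshold of 0.05. As a check of the labels, Vhl itself was 21.04, 14.9 and 18.4 normalized reads in floxed controls 1 to 3, 24.03, 21.9 and 25.3 in Cre controls 1 to 3 and 2.02, 2.14 and 2.52 in knockouts 1 to 3 (log2 change -2.75, SE 0.110, with limma adjusted p = 6.07e-08). Every knockout library lay far below every control. The libraries held 18201116 to 25861174 reads on the listed genes, and the 46 genes had from 51 reads (Ttk in a knockout) to 5553 reads (Mki67 in a floxed control) in a library.

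In the knockout, 43 of the 46 genes fell, 1 rose (Anln) and 2 did not pass the test (Cks2 and Smc4). Over the whole table, 20.2% of genes were lower and 19.7% higher by the same test. For 42 of the 46 genes all 3 knockout libraries lay below all 6 control libraries, an order found in 18.5% of all genes, and for Anln all 3 lay above, as in 19.3% of all genes. The median log2 fold change over the 46 genes was -0.85, against -0.00216 over all genes. Genes that fell kept 37.6% (Ncapg) to 66.9% (Smc2) of their control mean, with a median of 52.4%. The quartiles of those 43 genes were 47.2% and 55.9%, and 17 genes kept less than 50% of the control mean. Of the 43, 42 were also called against both controls together under each of 19 alternative settings. Smc2 lost its call without knockout 1 or 2 (limma adjusted p = 0.0606 and 0.0569). Anln lost it without knockout 2 or 3 (limma adjusted p = 0.0827 and 0.0731) and when the library totals alone were used for scaling (limma adjusted p = 0.0720).

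**Figure D2:**
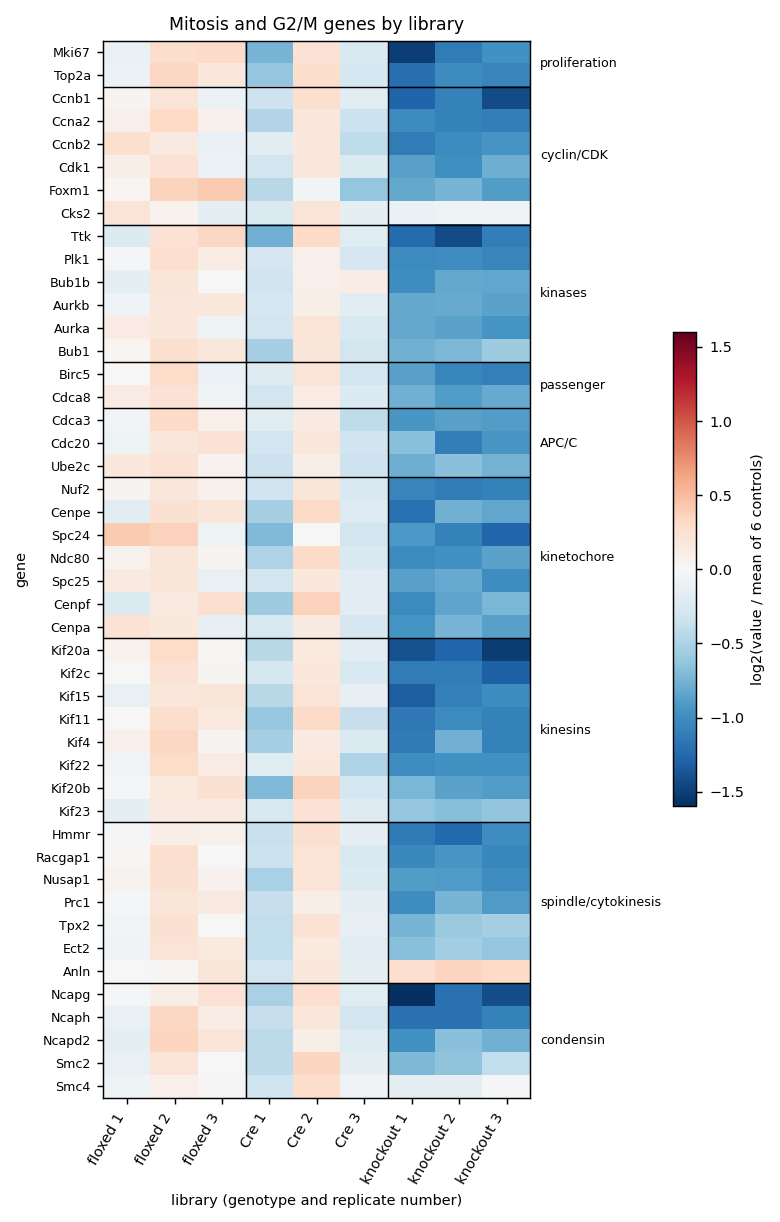
Log2 ratio of each library's value to the mean of the 6 controls (colour scale) for the 46 mitosis and G2/M genes (rows, grouped by role) in the 9 libraries (columns). The knockout columns are blue for 43 genes, near white for Cks2 and Smc4 and red for Anln, and Cre control 1 is the bluest of the control columns.

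Ki-67, the product of Mki67, coats mitotic chromosomes and is the usual mark of dividing cells. Mki67 (chromosome 7, 135689784 to 135716361, GRCm38) was 200.5, 261 and 267 normalized reads in floxed controls 1 to 3, 129, 252 and 181 in Cre controls 1 to 3 and 75.8, 98.8 and 109.5 in knockouts 1 to 3. The lowest control, Cre control 1, lay above the highest knockout, and the knockout mean was 44.02% of the control mean (log2 change -1.15, SE 0.194, with limma adjusted p = 0.00112). Top2a encodes topoisomerase II alpha, which untangles sister DNA molecules before they part. It was 133, 178 and 159 in floxed controls, 92.6, 172 and 116 in Cre controls and 61.3, 70.5 and 68.4 in knockouts, and fell to 47.1% of the control mean (log2 change -1.04, SE 0.166, with limma adjusted p = 0.000767).

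Among the cyclins and their partners, 5 of 6 genes fell. Cyclin B1 and cyclin B2 bind CDK1 to start mitosis. Ccnb1 was 25.3, 28.4 and 23.2 normalized reads in floxed controls 1 to 3, 19.5, 29.4 and 21.99 in Cre controls 1 to 3 and 10.1, 11.6 and 9.16 in knockouts 1 to 3, with no overlap between knockouts and controls (log2 change -1.17, SE 0.127, with limma adjusted p = 6.65e-05). Ccnb2 was 32.5, 30.1 and 25.4 in floxed controls, 24.2, 30.7 and 20.6 in Cre controls and 12.6, 13.5 and 14.2 in knockouts, and also did not overlap (limma adjusted p = 0.000170). The kinase gene Cdk1 itself fell from 28.2 ± 4.25 to 15.4 ± 1.03 normalized reads. Ccna2, for the cyclin of S and G2 phase, was 49.2, 58.2 and 48.96 normalized reads in floxed controls 1 to 3, 33.7, 52.95 and 36.9 in Cre controls 1 to 3 and 22.99, 22.1 and 21.7 in knockouts 1 to 3, and the knockouts were again the lowest 3 libraries (limma adjusted p = 0.000164). Foxm1, for the transcription factor that drives late cell cycle genes, fell to 56.7% of the control mean (log2 change -0.74, SE 0.124, with limma adjusted p = 0.00109). The knockout mean was 46.8% of the floxed and 72.1% of the Cre control mean. Against Cre controls alone Foxm1 was near the threshold (limma adjusted p = 0.0425). That call was lost under several alternatives, among them each knockout left out in turn (limma adjusted p = 0.0746 to 0.121). Cks2 encodes a small subunit that binds CDK1. It was 24.5, 22.1 and 19.3 normalized reads in floxed controls 1 to 3, 18.1, 24.5 and 19.2 in Cre controls 1 to 3 and 19.7, 20.1 and 20.5 in knockouts 1 to 3, so that the knockouts lay within the range of the controls (log2 change -0.07, SE 0.103, with limma adjusted p = 0.633, 95% interval -0.30 to 0.16). The log2 fold change of Cdk1, at -0.82, lies outside that interval.

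All 6 genes grouped as mitotic kinases fell. Plk1 encodes polo-like kinase 1, which acts from mitotic entry to cytokinesis. Plk1 was 15.8, 19.3 and 17.5 normalized reads in floxed controls 1 to 3, 13.3, 16.9 and 13.3 in Cre controls 1 to 3 and 7.94, 8.07 and 7.68 in knockouts 1 to 3 (log2 change -0.92, SE 0.0971, with limma adjusted p = 5.30e-05), and the knockouts were tightly grouped below all controls. Aurkb, the kinase of the chromosomal passenger complex that corrects faulty attachments, was 23.2, 27.4 and 27.1 in floxed controls, 19.9, 26.1 and 21.3 in Cre controls and 13.7, 13.8 and 13.4 in knockouts (limma adjusted p = 0.000123). Aurka, whose kinase matures the spindle poles, fell from 10.6 ± 1.56 to 5.81 ± 0.270 normalized reads. The spindle checkpoint holds the cell until all chromosomes are attached. Of the checkpoint genes in this group, Bub1b was 111, 139.8 and 124 normalized reads in floxed controls 1 to 3, 98.7, 129.5 and 133 in Cre controls 1 to 3 and 61.6, 69.3 and 69.1 in knockouts 1 to 3 (log2 change -0.86, SE 0.104, with limma adjusted p = 0.000137). Ttk kept 42.1% and Bub1 62.4% of the control mean, the lowest and highest shares among the 6 genes of this group. Both partners of Aurora B in the passenger complex fell too. Birc5, for survivin, was 20.1, 24.6 and 18.7 in floxed controls, 17.4, 23.1 and 16.1 in Cre controls and 10.9, 9.70 and 9.397 in knockouts (log2 change -0.92, SE 0.123, with limma adjusted p = 0.000266). Cdca8, for borealin, was 19.2, 20.7 and 16.8 in floxed controls, 14.4, 19.2 and 15.1 in Cre controls and 10.3, 9.44 and 10.04 in knockouts (limma adjusted p = 0.000291). In both genes Cre controls 1 and 3 were the lowest controls and still lay above the knockouts.

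Exit from mitosis needs the anaphase-promoting complex, a ubiquitin ligase that destroys cyclin B. Its mitotic activator gene Cdc20 was 16.2, 19.4 and 20.1 normalized reads in floxed controls 1 to 3, 13.8, 19.4 and 13.8 in Cre controls 1 to 3 and 10.8, 7.96 and 8.997 in knockouts 1 to 3 (log2 change -0.82, SE 0.132, with limma adjusted p = 0.000851), without overlap between knockouts and controls. Ube2c, for the ubiquitin-conjugating enzyme that works with the complex, was 16.7, 17.6 and 15.5 in floxed controls, 11.7, 16.1 and 11.9 in Cre controls and 8.71, 9.34 and 8.84 in knockouts and fell to 60.1% (limma adjusted p = 0.000690). Cdca3 encodes a protein that helps destroy an inhibitor of mitotic entry. It was 23.9, 30.5 and 25.97 in floxed controls, 21.5, 27.1 and 18.6 in Cre controls and 12.9, 13.5 and 13.3 in knockouts and fell to 53.8% (limma adjusted p = 0.000300). The core subunits of the same complex are described with the other lists.

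All 7 kinetochore genes fell. The 4 subunits of the NDC80 complex, which holds microtubules at the chromosome, kept shares of their control means of 47.2% for Nuf2, 51.9% for Ndc80, 47.2% for Spc24 and 54.2% for Spc25. Nuf2 was 18.97, 20.9 and 19.4 normalized reads in floxed controls 1 to 3, 14.8, 21.03 and 15.5 in Cre controls 1 to 3 and 8.88, 8.47 and 8.76 in knockouts 1 to 3 (log2 change -0.99, SE 0.105, with limma adjusted p = 5.46e-05). Every knockout library lay below the lowest control, Cre control 1. Cenpa, for the histone that marks the centromere, was 22.2, 21.3 and 17.3 normalized reads in floxed controls 1 to 3, 16.02, 20.8 and 15.7 in Cre controls 1 to 3 and 9.78, 11.3 and 10.4 in knockouts 1 to 3 (log2 change -0.78, SE 0.112, with limma adjusted p = 0.000387). Of the NDC80 genes, Spc25 was 15.1, 15.6 and 12.6 in floxed controls, 11.2, 15.4 and 12.2 in Cre controls and 7.51, 7.86 and 6.88 in knockouts (limma adjusted p = 0.000345). Cenpe, for a kinetochore motor, and Cenpf, for a large kinetochore-bound protein, kept 52.7% and 55.03%.

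All 8 kinesin motor genes fell. Kif20a (chromosome 18, 34624613 to 34633277), for a motor of the late spindle needed in cytokinesis, had the lowest log2 fold change of all 46 genes against both controls, at -1.31 beside -1.29 for Ncapg. The gap is below their SEs, and against Cre controls Ncapg was lower. It was 33.4, 39.5 and 32.5 normalized reads in floxed controls 1 to 3, 23.8, 35.8 and 28.3 in Cre controls 1 to 3 and 12.3, 13.3 and 11.2 in knockouts 1 to 3 (log2 change -1.31, SE 0.121, with limma adjusted p = 2.14e-05). Its exons overlap those of Cdc23 by 1271 bases, and without a stated strand setting reads there cannot be assigned to either gene with certainty. Cdc23 fell from 32.4 ± 1.11 to 28.8 ± 0.475 normalized reads (limma adjusted p = 0.0343). Of the 46 genes, 7 others share exon bases with a measured neighbour (Cdc20, Ncapg, Nusap1, Ccna2, Cdca8, Kif4 and Prc1), from 53 bases in Cdc20 to 944 in Ncapg. Kif2c, for a motor that shortens microtubules, was 14.7, 17.1 and 15.1 normalized reads in floxed controls 1 to 3, 11.99, 16.5 and 12.3 in Cre controls 1 to 3 and 6.74, 6.74 and 5.92 in knockouts 1 to 3 (log2 change -1.06, SE 0.109, with limma adjusted p = 4.84e-05), and the knockouts did not overlap with any control. Kif15 and Kif11 encode motors that keep the spindle poles apart. Kif15 was 20.2, 24.8 and 25.1 in floxed controls, 16.1, 25.2 and 19.9 in Cre controls and 8.75, 10.3 and 10.9 in knockouts (limma adjusted p = 0.000194), and Kif11 fell to 47.3%. The chromosome-bound motor genes Kif4 and Kif22 fell to 50.4% and 50.8%. Kif20b and Kif23 kept 56.3% and 64.1%, and against Cre controls alone Kif20b was the only kinesin gene not called (limma adjusted p = 0.0523).

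In the group of spindle assembly and cytokinesis genes, 6 of 7 fell. Hmmr, for a microtubule-binding spindle protein, was 25.3, 27.6 and 27.03 normalized reads in floxed controls 1 to 3, 19.9, 30.6 and 22.9 in Cre controls 1 to 3 and 11.7, 10.8 and 12.9 in knockouts 1 to 3 (log2 change -1.04, SE 0.119, with limma adjusted p = 8.90e-05). Racgap1 encodes the partner of the Kif23 motor in centralspindlin, and was 50.4, 59.1 and 49.2 in floxed controls, 39.2, 57.7 and 41.8 in Cre controls and 24.2, 26.1 and 24.03 in knockouts (limma adjusted p = 0.000125). Prc1, whose protein bundles the central spindle, was 39.8, 46.3 and 44.7 in floxed controls, 31.3, 43.6 and 36.3 in Cre controls and 20.3, 24.1 and 21.6 in knockouts (limma adjusted p = 0.000142). The knockouts were the lowest 3 libraries for each of these genes. Nusap1, Tpx2 and Ect2, for 2 microtubule-binding proteins and the exchange factor that activates RhoA at the cleavage site, kept 52.4%, 65.1% and 65.5%. Anln (chromosome 9, 22332012 to 22389188) encodes anillin, which links actin, myosin and septins at the cleavage furrow and also binds actin outside mitosis. It went the other way and was 71.05, 71.8 and 80.7 normalized reads in floxed controls 1 to 3, 57.3, 80.3 and 63.5 in Cre controls 1 to 3 and 85.2, 89.95 and 88.1 in knockouts 1 to 3 (log2 change 0.32, SE 0.0943, with limma adjusted p = 0.0229). The rise was small beside the falls, to 124% of the control mean. The highest control, floxed control 3 at 80.7, lay just below the lowest knockout at 85.2. Against floxed controls alone it was not called (limma adjusted p = 0.124).

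Of the condensin genes, 4 of 5 fell, and the subunits of the complex did not fall to the same extent. The 3 non-SMC subunits that are particular to condensin I kept the lowest shares. Ncapg (chromosome 5, 45669919 to 45700546) was 20.9, 22.9 and 24.9 normalized reads in floxed controls 1 to 3, 14.8, 25.7 and 18.5 in Cre controls 1 to 3 and 6.69, 9.34 and 8.00 in knockouts 1 to 3 (log2 change -1.29, SE 0.155, with limma adjusted p = 0.000130). Ncaph was 22.7, 30.97 and 26.6 in floxed controls, 19.03, 27.9 and 20.01 in Cre controls and 10.7, 10.8 and 11.6 in knockouts, and fell to 44.98% (limma adjusted p = 0.000134). Ncapd2 was 74.04, 104 and 93.3 in floxed controls, 61.4, 87.5 and 71.05 in Cre controls and 41.7, 51.4 and 47.9 in knockouts, and fell to 57.5% (limma adjusted p = 0.00103). For none of these 3 genes did the knockouts overlap with the controls. Smc2 and Smc4 encode the paired core of both condensin I and condensin II. Smc2 fell to 66.9% (limma adjusted p = 0.0141), and its highest knockout, at 50.2, lay above Cre control 1, at 49.3. Smc4 was 128, 142 and 136 normalized reads in floxed controls 1 to 3, 108, 164 and 129 in Cre controls 1 to 3 and 122, 122 and 133 in knockouts 1 to 3, and the genotypes overlapped (log2 change -0.09, SE 0.109, with limma adjusted p = 0.550, 95% interval -0.33 to 0.15). Of the 3 subunits particular to condensin II, named after their values were seen, Ncapd3 fell from 37.6 ± 7.07 to 25.5 ± 2.87 normalized reads (limma adjusted p = 0.0106). Ncapg2 was at 57.8 ± 11.8 against 52.3 ± 5.17 and Ncaph2 at 100.4 ± 7.73 against 98.8 ± 2.93 normalized reads, and neither passed (limma adjusted p = 0.591 and 0.798). Differences between subunits were not tested.

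Against each control separately, the knockout comparison gave nearly the same counts. Against floxed controls, 43 of 46 genes fell and 0 rose, where 16.8% of all genes were lower and 17.5% higher, with a median log2 fold change of -0.97. Against Cre controls, 42 fell and 1 (Anln) rose, where 17.7% of all genes were lower and 16.3% higher, with a median of -0.73. The 42 genes lower against Cre controls were also lower against floxed controls, as were 13.6% of all genes. Both contrasts use the same 3 knockout libraries. Between the controls, all 46 genes had a lower mean in Cre than in floxed controls, with a median log2 fold change of -0.22, but limma called 0 of 46 (0.1% of all genes were lower and 0.0667% higher in this contrast). At an unadjusted p under 0.05, 6 of the 46 passed, and edgeR also called 0. Foxm1, of the 6, was 29.2, 36.6 and 38.1 normalized reads in floxed controls and 20.9, 27.8 and 18.6 in Cre controls (log2 change -0.61, SE 0.144, with limma adjusted p = 0.322). It was the 1 gene of the 46 with every Cre control below every floxed control, an order found in 4.99% of all genes. DESeq2 called it (adjusted p = 0.0230), and over the other alternatives its adjusted p ran from 0.0766 to 0.974.

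**Figure D3:**
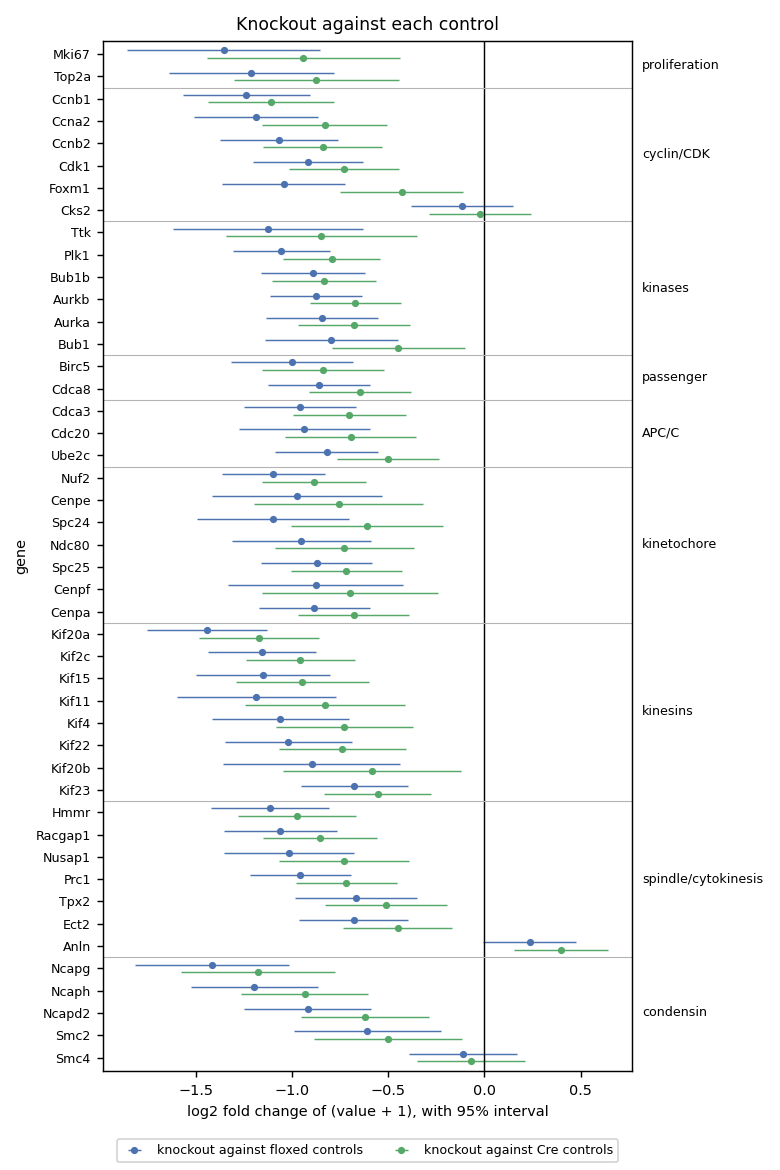
Log2 fold change of (value + 1) with its 95% interval (x axis) for the 46 genes (y axis, grouped by role), for the knockout against floxed controls (blue) and against Cre controls (green). Apart from Anln, Cks2 and Smc4 the intervals lie left of 0 in both contrasts, and the blue points lie left of the green ones for all 46 genes.

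The pools of 1 genotype differed in these genes together. The median over the 46 genes of each library's value, as a percent of the mean of the 6 controls, was 99.5, 117 and 105 in floxed controls 1 to 3, 77.8, 114 and 85.5 in Cre controls 1 to 3 and 50.7, 53.5 and 52.3 in knockouts 1 to 3. Within the Cre controls, library 2 was the highest for 45 of the 46 genes and library 1 the lowest for 38. Cre control 2 exceeded Cre control 1 in all 46, by a median ratio of 1.47 (range 1.26 to 2.13). The coefficient of variation between pools had a median over the genes of 21.3% in Cre controls, 10.9% in floxed controls and 6.64% in knockouts. Without Cre control 2, 35 of 46 genes were called lower against Cre controls, with a median log2 fold change of -0.56. Against both controls 43 were still called without it, with a median of -0.77.

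Levels of different genes are compared here per kilobase of merged exon length, as normalized reads per kilobase. In controls the highest were Cks2 (30.8 ± 4.06), Bub1b (28.7 ± 3.56), Smc4 (25.8 ± 3.56) and Mki67 (21.4 ± 5.43), and Ttk was the lowest (1.43 ± 0.387). From Cks2 to Mki67, neighbours in that order differed by less than the larger of their SDs. In knockouts Cks2 (29.1 ± 0.534) and Smc4 (24.1 ± 1.299) led, ahead of Bub1b (15.6 ± 1.03) and Mki67 (9.41 ± 1.71). Cks2 and Smc4, which did not fall, thus held the first 2 ranks in the knockout.

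Other genes of cell division were taken from lists chosen by function. Of 57 further mitotic genes, 46 fell and 3 rose, with a median log2 fold change of -0.71. Nek2, a centrosome kinase gene, fell from 13.2 ± 1.81 to 6.55 ± 0.880 normalized reads, Ccnf, for cyclin F, from 17.2 ± 3.26 to 6.52 ± 1.19, and Cep55, needed for the final cut of cytokinesis, from 18.1 ± 2.82 to 8.98 ± 0.506. The 3 that rose were Hjurp, Tuba1c and H2afz, of which H2afz lost its call without knockout 3 (limma adjusted p = 0.0571). Tubulin genes such as Tuba1c have near-identical copies, so its reads may be shared between genes. Hjurp encodes the chaperone that loads the centromere histone made by Cenpa, and was 90.5, 119 and 159.8 normalized reads in floxed controls 1 to 3, 105, 97.2 and 84.2 in Cre controls 1 to 3 and 209, 231 and 239.6 in knockouts 1 to 3 (log2 change 1.08, SE 0.148, with limma adjusted p = 0.000307). All 3 knockouts lay above all controls, while Cenpa fell to 55.5% of its control mean. Of 24 genes of the constitutive kinetochore, 16 fell and 0 rose. They were led by Oip5, for a centromere licensing factor (from 6.02 ± 1.03 to 2.67 ± 0.300), which overlaps Nusap1 by 172 bases, by Cenpi (from 10.8 ± 1.64 to 5.45 ± 0.527) and by Cenpm (from 3.78 ± 0.951 to 1.63 ± 0.0875).

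Of 48 DNA replication and S phase genes, 42 fell and 1 rose, and their median log2 fold change was -0.60 against -0.85 for the mitotic genes described above. Ccne1, for the cyclin of S phase entry, fell from 9.70 ± 1.53 to 4.25 ± 0.123 normalized reads, Mcm5, of the replicative helicase, from 67.01 ± 12.1 to 32.1 ± 2.69, and Cdc6, which loads the helicase, from 13.3 ± 2.60 to 5.16 ± 0.483. The 1 that rose was Gins2 (from 38.3 ± 3.33 to 44.6 ± 2.30), whose exons overlap those of Gse1 by 2758 bases and which lost its call without knockout 2. Of 22 E2F, RB and DREAM regulators, 11 fell and 1 rose. Without knockout 1 the first count was 7, and without floxed control 2 the second was 2. E2f2 fell from 53.1 ± 2.92 to 28.4 ± 0.604 normalized reads, E2f8, for a repressor that dividing cells make in S phase, from 16.2 ± 4.02 to 5.49 ± 0.499, and Mybl2, the activating partner of the complex that binds CHR sequences, from 12.01 ± 2.51 to 5.32 ± 0.487. Tfdp2, for a partner of E2F proteins, rose from 20.6 ± 1.58 to 29.3 ± 1.61. The NF-Y subunit genes Nfya, Nfyb and Nfyc, named after their values were seen, were at 74.1 ± 5.07 against 80.7 ± 4.37, 13.3 ± 0.901 against 11.3 ± 0.934 and 48.8 ± 2.89 against 49.1 ± 0.430 normalized reads, and none passed (limma adjusted p = 0.175, 0.0736 and 0.924).

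The anaphase-promoting complex core and cohesin also serve cells that do not divide. The list for the anaphase-promoting complex core has 15 genes, for its subunits and for the activator gene Fzr1, which is not a core subunit. Of the 15, 1 (Cdc23) fell and 3 rose, a share of rises near the 19.7% over all genes. Their median log2 fold change was 0.00303. Cdc23 was not called by DESeq2 or without any 1 of 6 libraries (floxed control 1, Cre controls 1 and 2, knockouts 1 to 3), and without knockout 1 only 1 gene rose. Anapc2 rose from 118 ± 3.63 to 134 ± 4.57 normalized reads, Anapc4 from 43.9 ± 2.19 to 50.2 ± 1.47 and Fzr1, for the activator used in G1, from 41.1 ± 1.66 to 46.02 ± 2.25, and none of these 3 was called when library totals alone were used for scaling. Anapc2 also lost its call without knockout 1 (limma adjusted p = 0.0604) and Anapc4 without knockout 3 (0.0626). Fzr1 also lost it without a trend (0.0536), with the replicate block (0.0537) and without any of floxed controls 1 and 3, Cre controls 1 to 3 and knockouts 1 and 2 (0.0561 to 0.155). Of 10 cohesin genes, whose products hold sister chromatids together and also shape chromatin in resting cells, limma called 0, with a median log2 fold change of -0.03. At an unadjusted p under 0.05 the count was also 0, as it was by edgeR and by DESeq2 after adjustment.

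Of 18 measured genes of G1 cyclins, their kinases and growth brakes, 6 rose (33.3%) and 5 fell (27.8%), with the brakes on both sides. Over all genes 19.7% were higher and 20.2% lower. Against floxed controls alone 4 rose and 5 fell. Ccng2, for the atypical cyclin G2 that restrains the cycle, was 47.2, 39.5 and 42.4 normalized reads in floxed controls 1 to 3, 40.9, 39.8 and 39.3 in Cre controls 1 to 3 and 74.7, 88.4 and 90.7 in knockouts 1 to 3 (log2 change 1.01, SE 0.0760, with limma adjusted p = 5.36e-06). Cdkn1b, for the CDK inhibitor p27, was 62.5, 56.4 and 63.1 normalized reads in floxed controls 1 to 3, 65.4, 60.4 and 56.4 in Cre controls 1 to 3 and 88.8, 103 and 107 in knockouts 1 to 3 (log2 change 0.70, SE 0.0747, with limma adjusted p = 5.60e-05). In both genes all knockouts exceeded all controls. Tob1, for an antiproliferative protein, rose from 92.99 ± 6.35 to 149 ± 20.4 normalized reads, and Cdkn1a, for the CDK inhibitor p21 and named after its values were seen, from 134 ± 9.50 to 194 ± 22.6 (limma adjusted p = 0.000149 and 0.000535). The inhibitor genes Cdkn2b and Cdkn2c fell, from 3.12 ± 0.768 to 0.440 ± 0.208 normalized reads and from 12.3 ± 2.07 to 6.96 ± 0.917, as did Ccng1 (log2 change -0.35, SE 0.0660, with limma adjusted p = 0.00209). Cdk4 and Ccnd3, for a kinase and a cyclin of G1 and named after their values were seen, were at 71.8 ± 6.22 against 72.4 ± 0.815 and 108 ± 8.67 against 118 ± 9.60 and did not pass (limma adjusted p = 0.885 and 0.170).

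**Figure D4:**
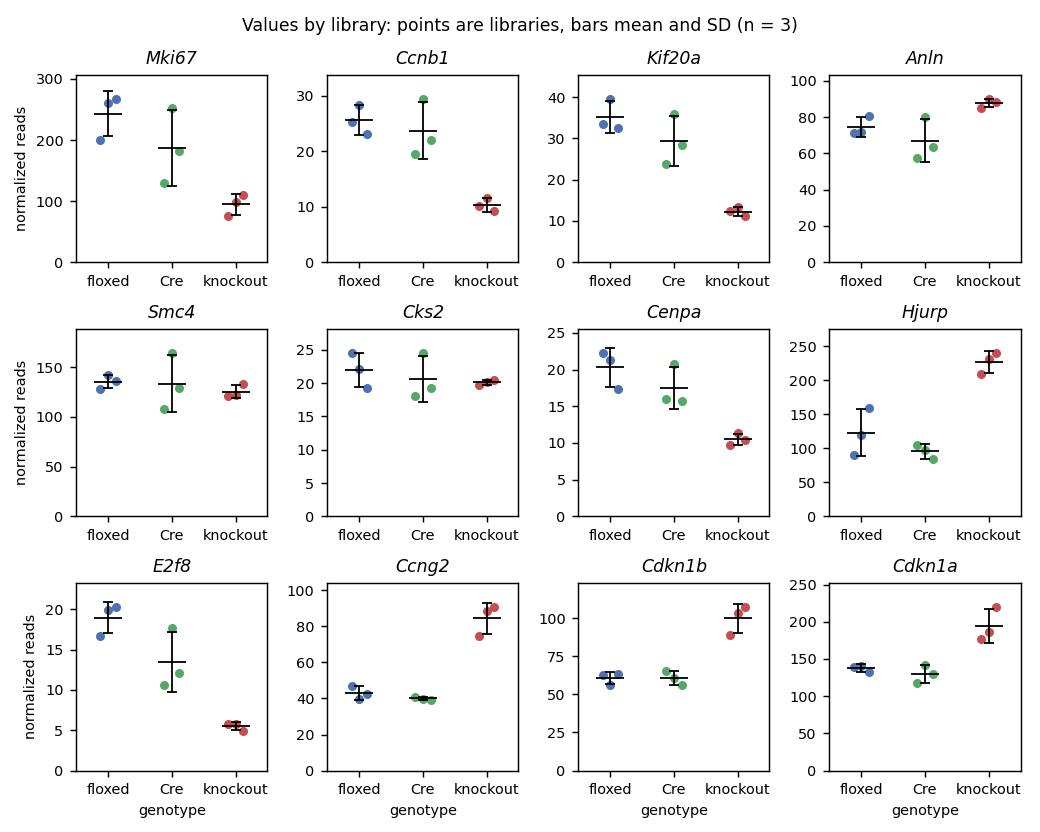
Normalized reads (y axis, from 0) of 12 genes in each library (points) by genotype (x axis), with mean and SD (n = 3). Mki67, Ccnb1, Kif20a, Cenpa and E2f8 are lowest in all 3 knockouts, Smc4 and Cks2 overlap with controls, and Anln, Hjurp, Ccng2, Cdkn1b and Cdkn1a are highest in all 3 knockouts.

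Markers of cells other than alveolar macrophages were read in the same libraries, since other dividing cells in a lavage could add to these genes. The CD11c beads select against cells without CD11c, among them most lymphocytes, but not against dendritic cells. Of 15 dendritic cell markers, 14 fell and 0 rose. Against floxed controls alone 14 fell, against Cre controls alone 11 fell, and 0 rose in either. Between the controls, 1 marker was lower in Cre than in floxed controls. The median value of the 15 markers, as a percent of the control mean, was 134, 61.04 and 95.9 in floxed controls 1 to 3, 66.4, 119.6 and 101 in Cre controls and 25.96, 29.5 and 26.6 in knockouts. Their summed level was 149 to 306 normalized reads in floxed controls, 174 to 371 in Cre controls and 65.5 to 77.2 in knockouts. Among the 6 controls, floxed control 2 had the highest median of the mitotic genes and the lowest of the dendritic cell markers. Among the Cre controls both medians were highest in library 2 and lowest in library 1. Among T and NK cell markers 4 of 12 are listed, and the defining Cd3e, Cd3d, Cd3g, Trac and Ncr1 were not found among the listed genes. Of the 4, Cd2 fell against both controls, at 184 ± 10.5 normalized reads in floxed controls, 223 ± 23.2 in Cre controls and 168 ± 8.95 in knockouts. Cd8a, Cd4 and Lck did not pass against both controls and lay between 0.0523 (Cd8a in a Cre control) and 6.79 (Cd4 in a floxed control) in every library. Against floxed controls alone 0 of the 4 were called, and against Cre controls alone 1 fell and 1 rose. Of B cell markers 2 are listed, of which 1 rose against both controls and against Cre controls. Against floxed controls 0 rose and 1 fell. These 2 summed to 7.22 to 73.3 normalized reads in floxed controls, 1.36 to 3.45 in Cre controls and 11.3 to 20.3 in knockouts. Beside 20.2% of all genes lower and 19.7% higher, of 6 neutrophil markers 1 rose and 0 fell, of 14 monocyte and interstitial macrophage markers 3 rose and 5 fell, of 9 lung epithelium markers 2 rose and 2 fell, and of 4 red cell markers 0 passed. All 15 alveolar macrophage markers were present, of which 6 rose and 3 fell. They summed to 31130 to 35460 normalized reads in floxed controls, 30230 to 35530 in Cre controls and 41150 to 53510 in knockouts. Their median value, as a percent of the control mean, was 88.2 to 99.0, 93.4 to 110.8 and 103.3 to 112.6 in the same order. Mitochondrially encoded genes took 2.67% to 5.59% of the reads in floxed controls, 3.29% to 3.82% in Cre controls and 1.77% to 2.40% in knockouts. The part of dendritic cells, lymphocytes and mitochondrial reads in the fall of the mitotic genes was not tested.

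**Figure D5:**
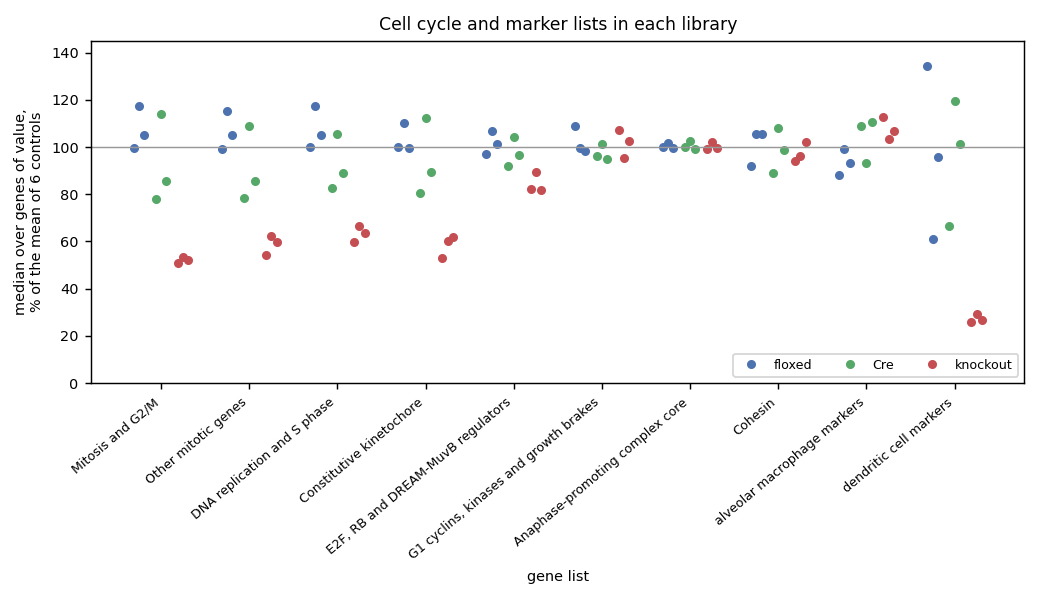
Median over the genes of each list of the value as a percent of the mean of the 6 controls (y axis), for 10 gene lists (x axis) in each of the 9 libraries (points, coloured by genotype). The mitosis and G2/M genes lie at 50.7% to 53.5% in knockouts and 77.8% to 117% in controls, while the anaphase-promoting complex core lies at 99.3% to 102.5% and cohesin at 88.98% to 108% over all 9 libraries.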

How the data were processed

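Poly(A) RNA of 9 libraries (3 genotypes with 3 pools of mice each) was sequenced as single reads and processed with CASAVA 1.8.2, cutadapt 1.3 and RSEM 1.2.3 on GRCm38, per the submitters' processing notes. Neither annotation nor strand setting is given in the sources used here. Values for 12003 genes were deposited by the authors as a signal, meaning reads scaled by a factor per library. Each value was a whole number of reads times that factor (100% whole within 0.01 read), and 1 read was worth 0.0400 to 0.0565. In all 9 libraries the factor matched scaling by library total and the edgeR TMM factor (trimmed mean of M-values), recomputed from the reads. The deposited values are called normalized reads here. All listed genes were tested, so that no filter on low values was added. Each of them reached at least 0.962 normalized reads in at least 3 libraries, so genes below that level are not among all genes here.

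From these values log2(value + 1) was fitted with limma 3.58.1 (R 4.3.3, mean-variance trend) over all 9 libraries, with no covariate and both controls weighted equally, and p-values were adjusted over 12003 genes. On simulated data this recovered 98% of 100 genes changed 0.5-fold and 65% of 100 changed 0.667-fold in the knockout against both controls, with 4 false calls. Far fewer genes were changed there than were called in the measured data, so these shares do not carry over to the measured contrast. edgeR 4.0.16 and DESeq2 1.42.0 were run on the recovered reads as alternatives. Gene IDs were matched to symbols for 11935 genes. No 2 libraries of 1 genotype agreed within sampling noise. The members and all gene lists were chosen with earlier results of these data known. Any of the 46 genes could be named. Values in every library were given for up to 3 per role with the smallest adjusted p against both controls, for genes that did not pass and for the highest and lowest log2 fold change. Of other pathway lists up to 3 genes per direction were named, and further genes of these lists are marked as chosen after their values were seen.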

Additional observations from a re-analysis of the deposited data

How the results depend on the processing

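A count was taken as kept within 1.5 times of the reported one. A median was taken as kept when it shifted by less than the SD between pools of 1 genotype. By these rules 476 counts and medians under alternatives were kept and 27 were not, most of them counts of 3 or fewer genes. Of the values for single genes, 3170 kept their direction and call, 83 lost the call, 8 gained one and 2 reversed. The 2 were Smc4 and Cks2 against Cre controls, at 0.0874 and 0.104 without Cre control 2, and neither was called. With each library left out in turn they ran from -0.213 to 0.0874 and from -0.105 to 0.104. Members called higher against both controls were 0 without a scaling factor and 0 to 1 when each library was left out in turn. Against floxed controls they were 1 with only the 2 groups compared and 0 to 1 with libraries left out, and against Cre controls 0 to 1. Members lower in Cre than in floxed controls were 1 by DESeq2. For the other lists against both controls, S phase genes called higher were 0 to 1 with libraries left out. Kinetochore genes called lower were 9 and G1 genes called lower 3 under a minimum mean level of 5 normalized reads, a filter that leaves fewer genes tested. Anaphase-promoting complex core genes called lower were 2 without a scaling factor, 0 by DESeq2 and 0 to 1 with libraries left out, and called higher 0 without a scaling factor and 1 to 3 with libraries left out. Cohesin genes called lower were 1 under the replicate block and 0 to 1 with libraries left out. E2F, RB and DREAM regulators called lower were 7 to 12, and called higher 1 to 2, with libraries left out. The cause of these shifts was not tested, except where a filter is named.

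With libraries left out in turn, members called lower were 42 to 43 against both controls, 42 to 43 against floxed controls and 35 to 42 against Cre controls, with medians of -0.91 to -0.77, -1.03 to -0.90 and -0.84 to -0.56. Same-number correlations between genotypes ran from -0.0817 to 0.575. Those among replicate 1 libraries were all positive (0.202, 0.575 and 0.332). Replicate 1 libraries correlated negatively with every number 2 or 3 library of another genotype. For numbers 2 and 3, same-number correlations ran only from -0.0817 to 0.234. Replicate 1 also had the lowest member median of each genotype, at 99.5% (floxed), 77.8% (Cre) and 50.7% (knockout) of the control mean. What the replicate 1 libraries shared was not tested. A fit with the replicate block gave 43 members lower and 1 higher against both controls. At these depths and 3 pools per genotype, 65% of genes changed 0.667-fold were recovered in simulated data.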

Other observations

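Among measured genes outside the 46 with a promoter in the table, 458 had both a CCAAT box and CHR letters, and 25.5% of them were lower in the knockout against both controls. Of the 181 with CHR letters and more than 1 CCAAT box, 32.6% were lower. Of the 4948 with neither motif, 19.5% were lower, close to the 20.2% of all genes tested. These shares are a description, and the difference between them was not tested.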
